A study of Drosophila melanogaster with 10 samples.

Results

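The respiratory chain genes of the nucleus were followed by RNA-seq in brains of third-instar larvae of the fruit fly Drosophila melanogaster. They were taken as every gene whose symbol begins with ND-, COX and a digit, UQCR-, SdhA to SdhD or ATPsyn, which gave 86 of 17895 genes in the deposited table. Of these, 62 are canonical subunits and 24 are paralogs, recognised by an L, or an L and a digit, at the end of the symbol (ND-MNLL is a canonical subunit that happens to end so). The canonical genes comprise 34 of complex I, 4 of complex II, 6 of complex III, 7 of complex IV and 11 of complex V. Each of the 86 was found in the RefSeq annotation of Release 6. The genotype label of 4 libraries is vostok, a mutant of CG11504 whose allele the labels do not describe and that of the other 4 is control; the columns of the control libraries are named yw. The stated purpose was to learn what the gene does for chromatin organization and transcription. The series also holds 2 Micro-C libraries, not analysed here. The labels do not say whether repeats of a genotype are different animals, so the p-values speak only for the spread of these libraries, and it may be technical.

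Complexes I to IV pass electrons from NADH and succinate to oxygen in the inner mitochondrial membrane, and complexes I, III and IV pump protons as they do so. Complex V, the ATP synthase, lets the protons flow back and makes ATP. All but complex II also hold subunits encoded in the mitochondrial genome, so each needs RNAs from both genomes. Neurons depend heavily on this route for ATP. In Drosophila many nuclear subunits have a second gene copy, and a number of these paralogs are known from the testis, where they are used in sperm.

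The libraries held 57613848 to 81796126 estimated counts. CG11504 itself was called higher, not lower, in the libraries labelled vostok (60.1 ± 4.99 CPM in control, 73.6 ± 1.93 CPM in vostok, SD, n = 4 each; log2 fold change 0.29 ± 0.06, adjusted p = 0.0143 by edgeR), so this RNA does not check the labels. The pigment gene y was at 0.846 ± 0.136 CPM in control and 123 ± 19.6 CPM in vostok libraries, and w at 3.43 ± 0.591 and 2.08 ± 1.33 CPM (adjusted p = 0.228). Strain background and the mutation cannot be told apart here. Markers of neurons, glia and neuroblasts were present in every library. The 5 neuron markers summed to 1130 to 2440 CPM in control and 2170 to 2530 CPM in vostok libraries. The 3 glia markers summed to 209 to 275 and 233 to 261 CPM, and the 5 neuroblast markers to 552 to 589 and 542 to 640 CPM. Of the glia markers, moody was lower (adjusted p = 0.00635), while repo (0.05 ± 0.08) and alrm (0.25 ± 0.17) were positive without a call. Of the neuroblast markers, mira was higher (adjusted p = 0.0416, and up to 0.106 with 1 library left out). The marker grh went the other way without a call (-0.76 ± 0.25, adjusted p = 0.0549), and DESeq2 called 1 neuroblast marker lower. dpn, wor and ase were not called. Levels are in CPM, with library sizes scaled by TMM factors. Each fold change below is vostok over control with its standard error; its p comes from the quasi-likelihood test of edgeR, adjusted by Benjamini-Hochberg over all 10749 genes tested.

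RNAs of the canonical subunits were slightly lower in vostok brains, across all 5 complexes. Of 62 canonical genes, all of them tested, 28 fell at an adjusted p below 0.05, against 16.2% of all tested genes in this direction, and 0 rose, against 12.1% of all tested genes. Neither DESeq2 nor an unadjusted p below 0.05 gave a higher canonical gene (0 by each). The sizes were small: the 28 genes were 11.5% to 26.4% below control. The median over all 62 was -0.25 on the log2 scale, that is 16% below control, beside a median of -0.01 over all tested genes. Every one of the 62 log2 fold changes was negative, also with RLE, upper quartile or no scaling factors, whereas 51.2% of all tested genes had a negative value. ND-MWFE turned positive, without a call, when control replicate 1 was left out (0.0216) and with the hemocyte covariate described below (0.0116). Among genes with a mean of at least 10 CPM, a comparison added after the data were seen, 17.3% of 7243 genes were lower, and 61 of the canonical genes belong to that class with the same 28 calls. Each vostok library lay below each control library for 42 of the 62, against 16.8% of all tested genes. In bulk tissue, fewer cells of a type and less RNA per cell cannot be told apart.

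Much of the spread lay within the control group. Leaving aside ND-B8, which is described below, control replicate 1 was the highest of the 8 libraries for each of the other 61 canonical genes. The summed level of the canonical genes was 9348, 7927, 8254 and 7635 CPM in control replicates 1 to 4 and 6986, 7103, 6941 and 7108 CPM in vostok replicates 1 to 4. The group means were 8290 ± 749 and 7030 ± 84.3 CPM (SD, n = 4), so that the control libraries differed more among themselves than the vostok libraries did, and the groups did not overlap. The median canonical gene deviated from its own 8-library mean by 0.30, 0.03, 0.12 and 0.00 on the log2 scale in control replicates 1 to 4. The corresponding medians in vostok replicates 1 to 4 were -0.13, -0.09, -0.14 and -0.13.

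**Figure D1:**
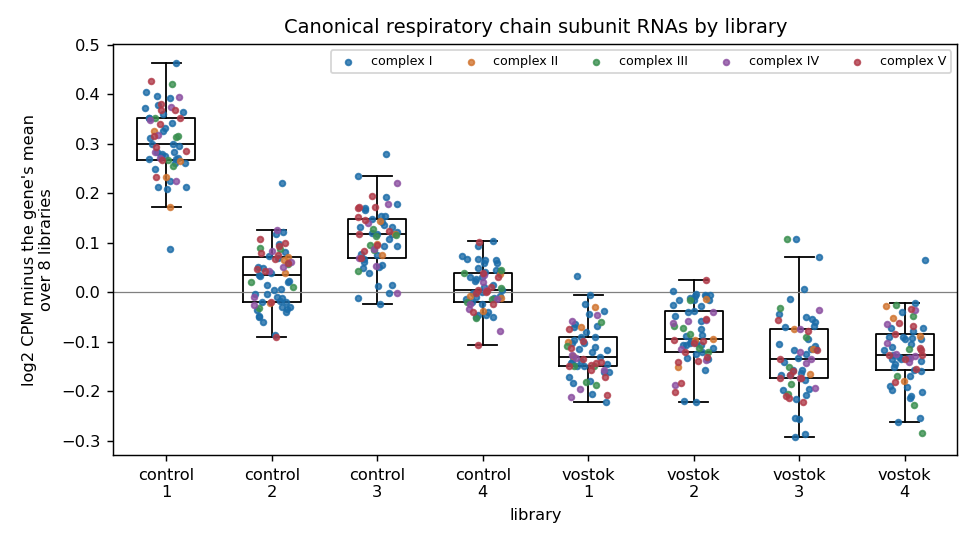
Each point is 1 of 61 canonical genes (ND-B8 left out) in 1 library; the y axis is its log2 CPM minus its mean over the 8 libraries, boxes span the quartiles with the median as a line, whiskers reach the furthest point within 1.5 times the box, and colours mark the complexes. Control replicate 1 stands above the others with a median of 0.30, and the vostok medians lie between -0.14 and -0.09.

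Markers of other cells differed between libraries as well. The 8 hemocyte markers, with overlapping groups for each, summed to 297 to 5920 CPM in control and 183 to 834 CPM in vostok libraries, with none at 0 in any group. Of the 8, 1 was lower (vkg, adjusted p = 0.0433), 0 were higher and the median log2 fold change was -2.49. At an unadjusted p below 0.05, 7 were lower. Without control replicate 2 all 8 were called lower, as were 25.6% of all genes in that fit. The top control library differed between the gene groups: hemocyte markers were highest in control replicate 3, the respiratory genes in control replicate 1. The mean log2 CPM of the hemocyte markers was 7.47, 4.37, 8.92 and 7.22 in control replicates 1 to 4. In both gene groups control replicates 1 and 3 lay above control replicates 2 and 4. Hemocyte markers were lowest in control replicate 2, the respiratory genes in control replicate 4. With the hemocyte mean as a covariate 1 canonical gene stayed lower, against 4.1% of all tested genes, and the median canonical fold change was -0.18. Since the covariate itself differs between the genotypes, it may absorb some of their difference. Without control replicates 1 and 3 together, 12 canonical genes were lower, against 6.24% of all genes tested in that fit, and the median was -0.14; in that fit ATPsynG (0.05) and ND-MWFE had positive values that were not called. The count of 28 fell to 9 without control replicate 3 and to 7 without any 1 of the 4 vostok libraries. The share of all genes called lower fell too, from 16.2% to 7.49% without control replicate 3 and to between 6.76% and 9.11% without a vostok library. Neuron markers were low in the control libraries where the respiratory genes were highest. brp, a protein of presynaptic release sites, was at 188.2, 599.3, 300.6 and 516.1 CPM in control and 554.4, 470.6, 518.5 and 588.9 CPM in vostok libraries, so that control replicates 1 and 3 lay below all others. The 5 neuron markers had log2 fold changes of 0.37 to 0.54, with overlapping groups and 0 called by edgeR (1 higher by an unadjusted p below 0.05, 1 by DESeq2). Without control replicate 2, 4 were called higher, as were 2523 of the 10987 genes tested in that fit. Muscle markers summed to 75.4 to 257 CPM in control and 46.3 to 151 CPM in vostok libraries (0 of 8 called by edgeR; DESeq2 called 1 lower, and 1 had an unadjusted p below 0.05). Fat body markers summed to 28.5 to 199 and 57.1 to 292 CPM (0 of 5 called by edgeR; DESeq2 called 1 higher, and 1 had an unadjusted p below 0.05). The part of these cells in the respiratory result was not tested.

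Complex I, which takes electrons from NADH, had 10 of 34 genes lower and a median log2 fold change of -0.22. ND-51, the subunit that binds NADH and the flavin, was at 143.7, 124.7, 128.6 and 122.4 CPM in control replicates 1 to 4 and at 98.4, 102.8, 102.1 and 102.8 CPM in vostok replicates 1 to 4. Its groups lay well apart, and it had the smallest p of the canonical genes (log2 fold change -0.35 ± 0.06, adjusted p = 0.00478). It was also the gene that stayed called with the hemocyte covariate (adjusted p = 0.0366). ND-30, a core subunit of the arm that reaches into the matrix, was at 92.5, 70.4, 78.9 and 72.1 CPM in control and 60.51, 57.65, 54.99 and 57.86 CPM in vostok libraries. This was the largest decrease among the called canonical genes (-0.44 ± 0.09, adjusted p = 0.0104), and no vostok library reached the lowest control library.

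The 7 core subunits, which hold the flavin and the iron-sulphur clusters or line the quinone site, did not move alike. ND-20, beside the quinone, was lower with ND-51 and ND-30 (-0.31 ± 0.08, adjusted p = 0.0227). ND-75, the large iron-sulphur subunit next to ND-51 in the path of the electrons, was at 207.5, 198.0, 197.4 and 194.1 CPM in control and 199.9, 193.2, 181.1 and 192.3 CPM in vostok libraries. Its groups overlapped (-0.06 ± 0.05, adjusted p = 0.404). ND-24 (-0.21 ± 0.07), ND-49 (-0.17 ± 0.06) and ND-23 (-0.16 ± 0.07) did not pass either, with adjusted p of 0.0642, 0.0574 and 0.101. Whether ND-51 and ND-75 differ from each other in their response was not tested.

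Among the 27 accessory subunits of complex I, which surround the core, 7 were lower. ND-42 was at 112 ± 8.12 CPM in control and 92.5 ± 1.35 CPM in vostok libraries (-0.27 ± 0.06, adjusted p = 0.0128). ND-39 was at 149 ± 11.5 and 120.0 ± 5.37 CPM (-0.31 ± 0.07, adjusted p = 0.0129). The other 5 were ND-B17.2, ND-B12, ND-B14.5A, ND-B15 and ND-B17, at -0.36 to -0.29. At the other end ND-MWFE (-0.06 ± 0.09) and ND-B16.6 (-0.08 ± 0.06) had overlapping groups. ND-MNLL (-0.25 ± 0.09, adjusted p = 0.0769) is uncertain, since its annotated span is the same 746 bases of the X chromosome as that of CG45089 and its estimated counts were fractional.

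ND-B8 had few counts. It had 26, 17, 11 and 12 counts in control and 3, 14, 11 and 4 counts in vostok libraries, that is 0.235 ± 0.0941 and 0.114 ± 0.0631 CPM. Its fold change of -1.01 ± 0.46 did not pass the test (adjusted p = 0.124). The annotated span of ND-B8 is 582 bases, 71 of which it shares with Gs1l, and how counting treated this overlap was not tested.

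Complex II, succinate dehydrogenase, had 2 of 4 genes lower and a median of -0.18. SdhD, a membrane anchor, was at 65.1, 54.4, 57.4 and 53.3 CPM in control and 47.5, 48.6, 46.4 and 45.9 CPM in vostok libraries (-0.29 ± 0.07, adjusted p = 0.02). SdhA, the flavoprotein that oxidises succinate, was at 191.8, 178.9, 184.8 and 169.3 CPM and at 158.9, 153.4, 161.8 and 167.1 CPM. Its groups came close without touching, and its adjusted p of 0.0479 was the highest of any called canonical gene (-0.18 ± 0.06). The iron-sulphur subunit SdhB (-0.14 ± 0.07, adjusted p = 0.167) and the other anchor, SdhC (-0.19 ± 0.06, adjusted p = 0.059), did not pass. Just outside the threshold beside SdhC lay ND-15 (0.0532), ND-49 (0.0574) and ND-B18 (0.0581), and just inside it ATPsynE (0.0407) and ATPsyngamma (0.0462), all as adjusted p.

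Complex III, which passes electrons from ubiquinol to cytochrome c, had 3 of 6 genes lower and a median of -0.26. UQCR-C1, a core protein, was at 315.5, 269.8, 274.7 and 255.4 CPM in control and 228.9, 233.3, 220.1 and 245.4 CPM in vostok libraries (-0.27 ± 0.08, adjusted p = 0.0355). UQCR-Q (-0.28 ± 0.08, adjusted p = 0.0344) and UQCR-14 (-0.25 ± 0.07, adjusted p = 0.0336), small subunits, fell by about the same amount. UQCR-14 lies wholly within the annotated span of CG32576, so reads of these genes may not be told apart. Its estimated counts were whole to within 0.01 in every library, unlike those of ND-MNLL, and the sharing of reads was not tested. UQCR-6.4 had the most negative value of the complex without passing (-0.29 ± 0.10, adjusted p = 0.0662), and UQCR-11 the least negative (-0.12 ± 0.09, adjusted p = 0.313).

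Complex IV, cytochrome c oxidase, has its catalytic subunits in the mitochondrial genome, and the nuclear subunits surround them. Of 7 nuclear genes 4 were lower, with a median of -0.26. COX8 was at 97.0, 80.5, 81.3 and 72.1 CPM in control and 63.7, 68.2, 65.4 and 67.7 CPM in vostok libraries (-0.32 ± 0.09, adjusted p = 0.0304). COX4 was at 194 ± 20.8 and 157 ± 4.25 CPM (-0.30 ± 0.08, adjusted p = 0.0272), and COX5B at 106 ± 13.5 and 85.4 ± 1.44 CPM (-0.31 ± 0.09, adjusted p = 0.0333). COX7A, the fourth, was at -0.26 ± 0.07 (adjusted p = 0.034). COX5A had separate groups but did not pass (211 ± 21.5 and 188 ± 4.8 CPM, -0.16 ± 0.08, adjusted p = 0.127), and COX6B had the least negative value (-0.10 ± 0.07, adjusted p = 0.269).

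Complex V had 9 of 11 canonical genes lower and a median of -0.27. In the peripheral stalk, which holds the catalytic head still, ATPsynCF6 (coupling factor 6) was at 130.3, 103.4, 111.3 and 107.5 CPM in control and 86.7, 92.1, 89.2 and 88.3 CPM in vostok libraries. The groups were separate, with control replicate 1 high (-0.34 ± 0.07, adjusted p = 0.0142). ATPsynO, which joins the stalk to the head, was at 207.3, 171.4, 181.2 and 165.2 CPM and at 145.8, 139.8, 138.6 and 148.3 CPM (-0.34 ± 0.08, adjusted p = 0.0161). ATPsynB was lower too (-0.32 ± 0.08, adjusted p = 0.0237), while ATPsynD of the same stalk did not pass (-0.12 ± 0.07, adjusted p = 0.183).

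All 3 genes of the head and central stalk within the symbol rule were lower: ATPsynbeta, the catalytic subunit (-0.26 ± 0.07, adjusted p = 0.0244), ATPsyngamma (-0.23 ± 0.07) and ATPsyndelta (-0.30 ± 0.08, adjusted p = 0.0238). Outside the rule, blw (alpha subunit, adjusted p = 0.138) and sun (epsilon subunit, -0.26 ± 0.09, adjusted p = 0.0547) did not pass. Of the 4 membrane subunits within the rule 3 were lower. ATPsynC, which forms the rotating ring, was at 1392, 1223, 1232 and 1135 CPM in control and 1009, 1031, 1034 and 1083 CPM in vostok libraries (-0.26 ± 0.07, adjusted p = 0.0322). ATPsynF had the most negative canonical value in the complex (-0.35 ± 0.09, adjusted p = 0.0293). ATPsynG was at 170.2, 128.3, 146.0 and 127.0 CPM and at 127.7, 139.0, 131.5 and 129.0 CPM, and here the groups overlapped (-0.12 ± 0.10, adjusted p = 0.361).

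The complexes differed more in calls than in size of change. The share of canonical genes lower ran from 29.4% in complex I through 50% in complexes II and III and 57.1% in complex IV to 81.8% in complex V, whereas medians stayed between -0.27 and -0.18. In complex I, 12 of the 24 genes that were not called had an adjusted p between 0.05 and 0.10, against 0 of 2 in complex V. The median standard error was 0.08 in each of complexes I, III, IV and V and 0.07 in complex II. The summed level of canonical genes in vostok was 85.9%, 88.1%, 85.4%, 85.9% and 83.5% of that in control libraries for complexes I to V. No test of a difference between complexes was made. In the same order, the counts were 6, 1, 0, 0 and 3 without control replicate 3 (7.49% of all genes lower). They were 5 or fewer in each complex without any 1 vostok library (6.76% to 9.11% of all genes). Without control replicate 2 they were 19, 3, 4, 4 and 10, and 25.6% of all genes were lower in that fit. These counts include the paralog ATPsynCF6L in complex V. The 6 canonical genes that kept the call whichever library was left out were ND-51, ND-30, ND-39, ND-42, ND-B17.2 and ATPsynCF6 (highest adjusted p 0.0486, for ND-B17.2).

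**Figure D2:**
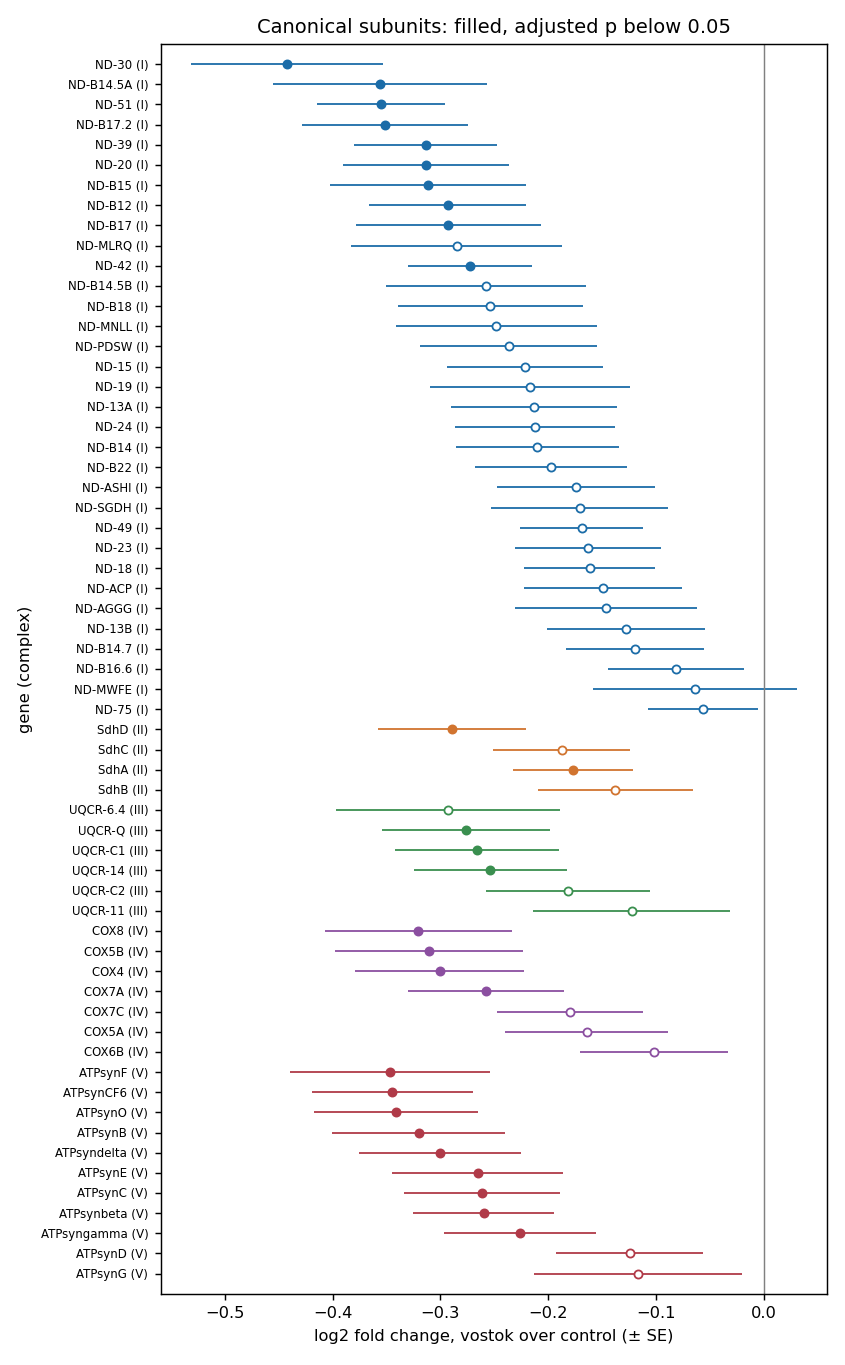
Log2 fold change, vostok over control, with its standard error for 61 canonical genes (ND-B8, at -1.01, is left out), grouped and coloured by complex; filled points passed an adjusted p below 0.05 and open points did not. The points lie between -0.44 and -0.06, and the complexes cover overlapping ranges.

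The paralogs were at very low levels in these brains, and 1 of them was called, as lower in vostok. Of 24 paralogs 2 had no count in any library (ND-20L and COX6AL), 7 had fewer than 3 counts in each library, and 1 reached a mean of 1 CPM in either group. The count filter kept 3 of them, ATPsynCF6L, ATPsynepsilonL and COX6CL, so a count of calls among those that passed does not describe the 24. Of the 21 paralogs that were not tested, 8 had more counts in vostok, 8 had fewer and 5 had equal counts over the 4 libraries of a group.

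ATPsynCF6L, the paralog of coupling factor 6 (FBgn0035585; Release 6, chromosome 3L, 5011444 to 5012133), was nearly absent from the vostok libraries. It had 140, 173, 174 and 152 counts in control replicates 1 to 4 and 2, 4, 4 and 1 counts in vostok replicates 1 to 4. It could thus pass the count filter only through the control libraries. Its levels were 2.31 ± 0.336 CPM and 0.0398 ± 0.0184 CPM, and the vostok mean lies under the level of 3 counts in a library (0.0458 CPM on average). Over the summed counts, 639 against 11, control was 55.4 times vostok (95% exact interval 30.8 to 112, counting error only). The fitted log2 fold change was -5.76 ± 0.33 (adjusted p = 3.21e-05), and it ranged from -5.99 to -5.53 when 1 library was left out. The call held with the hemocyte covariate (adjusted p = 1.49e-04) and under every other setting tried.

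The canonical partner, at -0.34, had a smaller decrease, and the difference between these fold changes was not tested. For each 1000 counts of ATPsynCF6, the libraries held 15.5, 20.8, 25 and 21.2 counts of ATPsynCF6L in control and 0.384, 0.537, 0.662 and 0.196 in vostok. Both genes are short, with spans of 690 and 845 bases, and these counts were not divided by transcript length. The paralog lies wholly within the annotated span of Con (chromosome 3L, 4936758 to 5079033), which encodes Connectin, a cell adhesion protein. Con ranged from 115.7 to 267.8 CPM in control and from 225.3 to 270.4 CPM in vostok libraries. Its groups overlapped and it did not pass (0.52 ± 0.26, adjusted p = 0.148). Whether strand was used in counting is not stated, so reads of a gene inside another cannot be assigned with certainty. The estimated counts of ATPsynCF6L were whole to within 0.01 in every library.

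**Figure D3:**
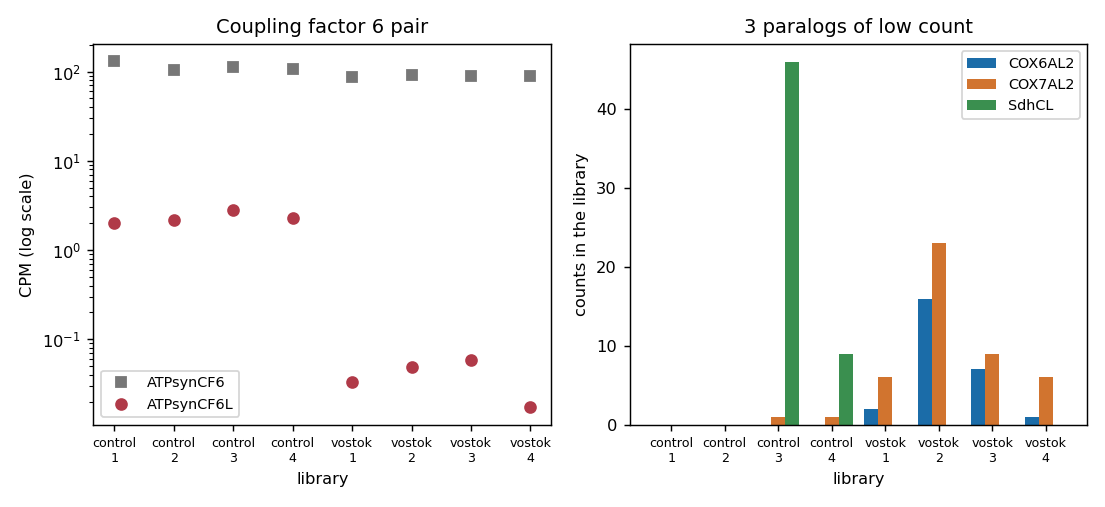
Left, CPM on a log axis of ATPsynCF6 (squares) and its paralog ATPsynCF6L (circles) in each library; right, bars of the counts of COX6AL2, COX7AL2 and SdhCL in each library, 1 library per bar and so without error bars. ATPsynCF6L has 140 to 174 counts in control and 1 to 4 in vostok libraries, while ATPsynCF6 stays between 86.7 and 130.3 CPM.

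A pair of complex IV paralogs, singled out after their values were seen, went the other way at very low counts. COX6AL2, a second copy of the subunit encoded by levy, had 0 counts in each control library and 2, 16, 7 and 1 counts in vostok replicates 1 to 4. Against a floor of 3 counts per library its mean was at least 2.03-fold higher in vostok (0.088 against 0.0433 CPM), although vostok replicates 1 and 4 were themselves under 3 counts. COX7AL2, a copy of COX7A (chromosome 2L, 2192525 to 2197912), had 0, 0, 1 and 1 counts in control and 6, 23, 9 and 6 counts in vostok libraries. The ratio of its summed counts, scaled by library size, was 23.1 (95% exact interval 6.02 to 196, counting error only). Neither gene passed the count filter. With no filter both were called higher (adjusted p = 0.0426 for COX6AL2 and 0.0113 for COX7AL2), against 8.89% of the 16045 genes then tested. A gene that is silent in 1 group enters such a test only through the other. Vostok replicate 2 held the most counts of each. Of the annotated span of COX6AL2, 49.6% is shared with Ir75d and 12.1% with Prp6, so its few counts are uncertain.

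SdhCL, a copy of the complex II anchor SdhC, was seen in control replicates 3 and 4 alone, with 46 and 9 counts, and in none of the other 6 libraries; control replicates 1 and 2 thus looked like the vostok libraries. Without a count filter it was not called (adjusted p = 0.156). ATPsynepsilonL, the copy of the epsilon subunit encoded by sun, had 64, 22, 43 and 36 counts in control and 21, 35, 33 and 33 counts in vostok libraries. These groups overlapped (-0.39 ± 0.37, adjusted p = 0.418). COX6CL, at 36 counts over control and 45 over vostok libraries, was the third tested paralog and did not pass (0.36 ± 0.41, adjusted p = 0.511). For both, counts per 1000 counts of the canonical partner overlapped between the groups, at 3.19 to 8.31 in control and 4.55 to 7.28 in vostok for ATPsynepsilonL and at 0.738 to 2.46 and 1.13 to 2.71 for COX6CL.

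Paralogs and canonical genes also differ in where they lie. Of 24 paralogs 10 lie wholly within the annotated span of another gene, against 2 of 62 canonical genes. COX5BL begins 122 bases from COX5B, COX7CL 281 bases from COX7C and COX7AL 2625 bases from COX7A. The 15 counts of COX5BL in each group, like those of COX7CL (19 in control, 12 in vostok) and COX7AL (12 and 22), did not reach the filter.

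Since many of these paralogs are known from the testis, markers of male germ cells were set beside them. Of 26 markers 10 were tested, of which 4 were higher, against 12.1% of all tested genes, and 0 lower by edgeR in vostok (1 lower at an unadjusted p below 0.05, 0 lower with DESeq2). The list summed to 47.2 to 75 CPM in control and 61.9 to 90 CPM in vostok libraries, and 2 of its members, Mst84Da and Mst84Dd, were at 0 throughout. Most of the sum came from bol (35 ± 12.5 and 47.2 ± 11.4 CPM), twe (8.61 and 8.74 CPM) and mia (8.01 and 8.23 CPM), none of them called. Others were close to 0, such as ProtA (0 and 0.0136 CPM) and dj (0 and 0.00369 CPM). The called markers included can, a testis form of a TAF (1.6 ± 0.199 and 5.64 ± 0.793 CPM, adjusted p = 2.53e-04), and bam, which starts germ cell differentiation (0.385 ± 0.135 and 1.26 ± 0.164 CPM, adjusted p = 0.00483). Mst87F was called too (0.0152 ± 0.0212 and 0.287 ± 0.133 CPM), but it could pass the count filter only through the vostok libraries. With 1 library left out, 3 or 4 were higher. The call of betaTub85D was lost in such a fit (highest adjusted p 0.119). Their part in the levels of the paralogs was not tested.

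Other genes of the same pathway were examined through lists of known members, whose counts stand beside shares of 16.2% lower and 12.1% higher among all tested genes. Of 7 further canonical subunits with names outside the symbol rule, 2 were lower, 0 were higher (0 also with DESeq2 and by an unadjusted p below 0.05), and the median was -0.15. RFeSP, the Rieske iron-sulphur protein of complex III, was at 119 ± 10.4 and 101 ± 3.23 CPM (-0.25 ± 0.07, adjusted p = 0.0315), and levy, a complex IV subunit, at 173 ± 20.7 and 143 ± 3.19 CPM (-0.28 ± 0.08, adjusted p = 0.0415). By contrast blw, the alpha subunit of the ATP synthase, which alternates with ATPsynbeta in the head, did not pass (-0.13 ± 0.06, adjusted p = 0.138). The 2 calls were lost without control replicate 3 or any 1 vostok library (0 lower). With the hemocyte covariate neither passed (adjusted p of 0.192 for RFeSP and 0.261 for levy). Cyt-c-p, the cytochrome c of somatic cells that carries electrons from complex III to IV, was at 107.9, 94.4, 96.2 and 89.6 CPM in control and 70.0, 65.7, 74.0 and 80.3 CPM in vostok libraries. It was lower (-0.42 ± 0.08, adjusted p = 0.00851), a call that held with any 1 library left out and with the hemocyte covariate (adjusted p = 0.0357).

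RNAs of the mitochondrial genome had 4 of 12 tested genes lower (16.2% of all genes), 0 higher (0 also at an unadjusted p below 0.05 and with DESeq2) and a median of -0.42. The steepest called decrease was that of mt:ND1, which encodes a membrane subunit of complex I, at 219.2 to 295.9 CPM in control and 124.6 to 170 CPM in vostok libraries (-0.86 ± 0.14, adjusted p = 0.00383). mt:ND4, another membrane subunit, was at 337 ± 49.8 and 223 ± 36.3 CPM (-0.60 ± 0.14, adjusted p = 0.0207). The list had 7 lower genes without control replicate 2 (25.6% of all genes lower in that fit) and 6 without vostok replicate 3 (6.98%). It had 1 without control replicate 3 or vostok replicates 1, 2 or 4 (6.76% to 9.11%). With the hemocyte covariate mt:ND1 was the 1 lower gene (adjusted p = 0.0339; 0.17 for mt:ND4), and 1 gene was higher.

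A list of assembly factors and other mitochondrial proteins had 5 of 11 tested genes lower (16.2% of all genes), with a median of -0.20. In that list 0 were higher (0 at an unadjusted p below 0.05 and with DESeq2). The lower genes included Ccdc58, whose part in assembly was not examined (28.8 ± 0.716 and 24.4 ± 1.02 CPM, adjusted p = 0.0115). Another was Cox10, which makes the heme of complex IV (32.7 ± 2.58 and 27.8 ± 0.846 CPM, adjusted p = 0.0301). Carriers and porin had 3 of 5 lower and 0 higher by the same tests. These include Mpcp2, a phosphate carrier (511 ± 43.8 and 385 ± 10 CPM, adjusted p = 0.00558), and sesB, which exchanges ADP for ATP (1090 ± 141 and 859 ± 33.1 CPM, adjusted p = 0.0327). Without control replicate 3 or any 1 vostok library, 1 gene of each of these lists was lower, and without control replicate 1 or 4 the assembly list had 3. With the hemocyte covariate 0 genes of the assembly list were lower (Ccdc58 0.0693, Cox10 0.201, as adjusted p), and 0 with the replicate block. Of the carriers, Mpcp2 kept its call with the covariate (adjusted p = 0.0471) and sesB did not (0.225).

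A list of the TCA cycle, pyruvate dehydrogenase and related enzymes had 11 of 21 genes lower (16.2% of all genes) and 2 higher (12.1% of all genes). Its median was -0.25. The lower genes include Idh, Mdh1 and Men, related enzymes outside the cycle itself (adjusted p of 0.0363, 0.0103 and 0.0139). Idh3a, a subunit of isocitrate dehydrogenase, fell from 231 ± 9.92 to 188 ± 4.03 CPM (adjusted p = 0.00561), and Mdh2, malate dehydrogenase of mitochondria, from 177 ± 19.9 to 132 ± 3.59 CPM (adjusted p = 0.0087). The opposite direction was taken by kdn, citrate synthase, which was at 243.2, 263.6, 243.8 and 248.2 CPM in control and 279.7, 285.4, 283.6 and 310.2 CPM in vostok libraries (0.21 ± 0.06, adjusted p = 0.0283). Fum3, a fumarase copy of low level, was at 0.0299 ± 0.0322 and 0.292 ± 0.077 CPM (adjusted p = 0.0104). Its control mean was under the floor of 3 counts, and it could pass the count filter only through the vostok libraries. The call of kdn was lost with 1 library left out (highest adjusted p 0.0774) and with the hemocyte covariate (0.232), and that of Fum3 with the covariate (0.053). Without control replicate 3 or vostok replicate 2, 6 genes of this list were lower, and 7 without vostok replicate 3 or 4. With the hemocyte covariate 1 was lower, Idh3a (adjusted p = 0.0487; 0.0696 for Mdh2), and with the replicate block 5. Glycolysis genes had 4 of 12 lower (16.2% of all genes) and 0 higher (0 at an unadjusted p below 0.05 and with DESeq2), with a median of -0.23. PyK, pyruvate kinase, was at 530 ± 70.1 and 348 ± 37.8 CPM (adjusted p = 0.00866) and Gapdh2, whose groups overlapped, at 763 ± 155 and 525 ± 62.4 CPM (adjusted p = 0.0369). That count was 1 without control replicate 1 or 3 or any 1 vostok library, and 1 with the hemocyte covariate (PyK, adjusted p = 0.0295; 0.153 for Gapdh2).

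Genes that regulate mitochondrial biogenesis or maintain mitochondrial DNA had a median of -0.14, with 1 of 9 lower and 1 higher, counts near the shares among all genes (16.2% and 12.1%). Ets97D, a factor that in Drosophila activates nuclear genes of mitochondria, was at 23.9 ± 1.05 and 20.8 ± 0.981 CPM (adjusted p = 0.0369), and ERR, the estrogen-related receptor, at 29 ± 2.08 and 34 ± 0.634 CPM (adjusted p = 0.027). The list had 3 lower genes without control replicate 2, a fit with 25.6% of all genes lower. The call of Ets97D was lost without 1 library (highest adjusted p 0.103), as was that of ERR (highest 0.0849), and both with the hemocyte covariate (0.201 and 0.208). srl, the Drosophila PGC-1 homologue, did not pass (-0.16 ± 0.06, adjusted p = 0.091).

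**Figure D4:**
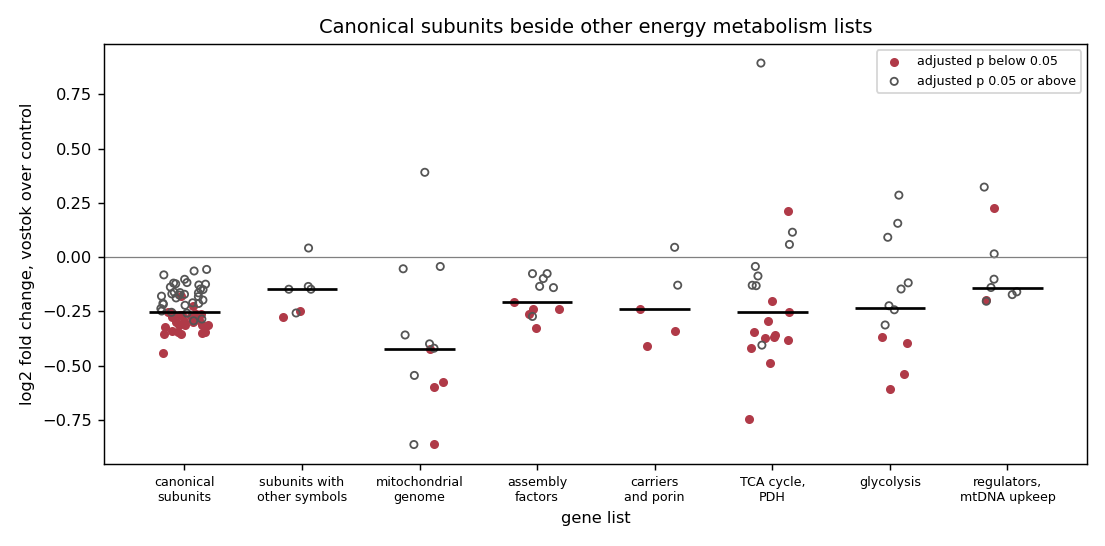
Log2 fold changes of canonical subunits and of 7 lists of energy metabolism genes; each point is a gene, red where the adjusted p is below 0.05, and bars are medians over all tested members. ND-B8 (-1.01) and Fum3 (3.24) lie outside the plotted genes; the medians run from -0.42 (mitochondrial genome) to -0.14 (regulators).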

How the data were processed

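Values deposited by the authors are estimated counts for each gene without scaling across libraries. The table's name gives salmon as the quantifier; BWA and dm6 appear, with no role, per the submitters' processing notes. Software version, annotation release and use of strand are not stated; the kit was directional per the labels' protocols. Counts were rounded and filtered with filterByExpr. They were scaled by TMM and tested with edgeR 4.0.16 (quasi-likelihood, robust, R 4.3.3), genotype as the only term, Benjamini-Hochberg adjusted at 0.05. The test was also run on simulated counts, drawn independently for each gene, whose smallest decrease exceeded those of the called canonical genes. That run does not check changes as small as theirs or shifts shared by many genes of a library. Libraries held 57613848 to 81796126 counts, at which 3 counts are 0.0371 to 0.0519 CPM. This floor covers counting error only, since the labels mention no molecular identifiers. Transcript lengths were not used, so counts per 1000 partner counts are for comparing libraries, not genes.

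Members and lists were chosen with earlier results of these data known. Up to 4 called canonical genes per complex and direction, the highest level and extreme fold changes of each complex, paralogs called or of at least 1 CPM with their partners, and up to 2 called genes per list and direction were named; others were named after their values were seen. Alternatives used DESeq2 1.42.0, limma 3.58.1 (voom), other scalings, filters and thresholds, a replicate block, a hemocyte covariate and left-out libraries. Positions came from the RefSeq table of Release 6. Figures were drawn with matplotlib 3.10.9.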

Additional observations from a re-analysis of the deposited data

Results flagged for a closer look

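In 3 of 66 groups of 4 libraries examined, 1 library lay far from the other 3; chance flags about 1 in 20 such groups. ND-51 was at 98.4 CPM in vostok replicate 1, against 102 to 103 CPM in the other vostok libraries. UQCR-6.4 was at 29.9 CPM in control replicate 1, against 22.6 to 23.8 CPM in the other control libraries. COX5A was at 181 CPM in vostok replicate 3, against 190.4 to 191.2 CPM in the others. Control replicate 1 was the highest library for each of the 61 canonical genes other than ND-B8.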

How the results depend on the processing

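Of the 62 canonical genes 0 were called higher under any of the alternatives, and the call of ATPsynCF6L held in each. The number lower depended on the setting. With upper quartile scaling 19 members were lower, 18 of them canonical, against 13.4% of all tested genes. Library totals alone gave 18 and 17, against 12.1%. The replicate block gave 5 and 4, against 7.07% of all tested genes. Deviations of same-numbered libraries correlated at 0.18, 0.00712, 0.0388 and -0.0473. Differently numbered libraries correlated at -0.376 to 0.311, so this check cannot decide whether same-numbered libraries were prepared together. Without control libraries 1 and 3 together there were 13 and 12 (6.24% of all genes), and with the hemocyte covariate 2 and 1 (4.1%). glmTreat against a 1.2-fold change gave 1 and 0 (5.9% of all genes), and an adjusted p below 0.01 gave 2 and 1 (4.23%). With the block, the covariate, glmTreat and the stricter threshold, the canonical share called lower was below that of all genes. Leaving out 1 library gave 8 to 40 members lower and 7 to 39 canonical genes lower, while 6.76% to 25.6% of all genes were lower. In these fits 0 members were higher and 1 paralog was lower each time. With no count filter 2 members, both paralogs, were higher. By complex, DESeq2 called 19 genes of complex I, in a fit with 21.6% of all genes lower. The block left 4, 0, 0, 0 and 1 genes of complexes I to V, the covariate 1, 0, 0, 0 and 1, glmTreat 0, 0, 0, 0 and 1, and the stricter threshold 1, 0, 0, 0 and 1. Upper quartile scaling and library totals each left 1 gene of complex II and 0 of complex III. RLE scaling, no filter, the stricter filter and voom each left 1 of complex II. Without control libraries 1 and 3 there were 1, 0, 0 and 5 in complexes II to V. Leaving out 1 library gave 5 to 19, 0 to 3, 0 to 4, 0 to 4 and 2 to 10. ATPsynG turned to a log2 fold change of 0.0458 (adjusted p = 0.61) without control libraries 1 and 3. Over 28 named members and all alternatives, 162 of 559 values lost a call. The 559 include values of ND-75, ND-B8, SdhB, UQCR-6.4, UQCR-11, COX5A, COX6B and ATPsynG, which had no call to lose. The causes were not tested. Scaling moved the median of all genes by less than 0.1 on the log2 scale. The effect of depth was not tested; 21 of 24 paralogs had too few counts to be tested.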
